A study of Saccharomyces cerevisiae with 7 samples.

Results

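The small ribosomal subunit protein genes of budding yeast (Saccharomyces cerevisiae) were followed through meiosis in the Spo11Y135F mutant. Members were the open reading frames of the array table whose standard gene name in the R64 reference gene table is RPS, a number and, for duplicated genes, A or B. This gave 56 genes of 6141 open reading frames in the table, and all 56 had a value at every time. They encode 32 proteins, of which 8 come from a single gene and 24 from a pair of paralogues named A and B. Later samples came from 1, 2, 3, 4, 5, 6 and 8 h of meiosis and are set against 0 h; each time has 1 array. Every sample, 0 h included, carries the Spo11Y135F allele. Spo11 cuts DNA to start meiotic recombination, and the tyrosine exchanged in the mutant is the residue that does the cutting. Samples without the allele were not analysed here, so no difference can be assigned to it, and the labels do not state strain background, medium or ploidy.

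The small subunit of the cytosolic ribosome binds the messenger RNA, scans for the start codon and reads the code, and it is built of the 18S ribosomal RNA and the proteins described here. Its head holds proteins of the mRNA entry side and of the beak, and its body and platform hold proteins of the decoding centre and of the mRNA exit side. In yeast, ribosomal protein genes are transcribed together under Rap1, Fhl1, Ifh1 and Sfp1, which respond to nutrients through the TORC1 kinase and protein kinase A, and their transcripts are known to fall when cells are starved, as cells are for sporulation. Most of these genes have kept a second copy from an ancient duplication of the genome.

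Each array set mRNA of a time point, labelled with Cy5, against a pool of mRNA from the whole course, labelled with Cy3. The deposited value is a log2 ratio set relative to 0 h. With a value of -1, a transcript took a 2-fold smaller share of the mRNA than at 0 h; the values are differences, not levels. In such a pool, fewer cells that express a gene and less RNA per cell cannot be told apart. Values of a gene are given below in the order 1, 2, 3, 4, 5, 6 and 8 h. Comparisons with all genes use the 5585 open reading frames with a value at all 7 times. The 6 h column has the widest spread over all genes (SD 1.49, against 0.84 at 2 h, the narrowest), and 321 rows have a value at 6 h only; the labels do not say whether that column shares its 0 h measurement with the others. With 1 array a time, sizes at single times have no replicate error and are descriptions of these arrays.

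The first question is how the small subunit genes stood relative to 0 h as meiosis went on. They were low together from 1 to 5 h and closer to their 0 h share at 6 and 8 h. Over the 56 genes the log2 ratio had medians of -1.79, -1.66, -1.88, -1.98 and -2.35 from 1 to 5 h, -0.53 at 6 h and -0.73 at 8 h. The quartiles over the 56 genes were -3.04 and -2.02 at 5 h, a median share 5.11-fold below 0 h, and -0.92 and -0.17 at 6 h, 1.45-fold below. The median of all genes stayed between -0.15 at 6 h and 0.033 at 1 h.

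Counted by gene, 45 of 56 were at least 2-fold below 0 h at 1 h, where 9.44% of all genes were. The count was 51 at 2 h (9.35% of all genes), 52 at 3 h (8.43%), 53 at 4 h (10.7%) and 53 at 5 h (17.4%). At 6 h the count was 12, against 19.5% of all genes, and at 8 h it was 9, against 10.8% of all genes. The 6 h count is near the share of all genes. At all 5 times from 1 to 5 h together, 45 of 56 were at least 2-fold below 0 h, as were 3.04% of all genes. No small subunit gene was at least 2-fold above 0 h from 1 to 5 h or at 8 h, where 10.8%, 8.68%, 7.68%, 11.5%, 16.3% and 12.3% of all genes were at 1, 2, 3, 4, 5 and 8 h. At 6 h, 2 were, RPS0A and RPS28A, with 18.9% of all genes.

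**Figure D1:**
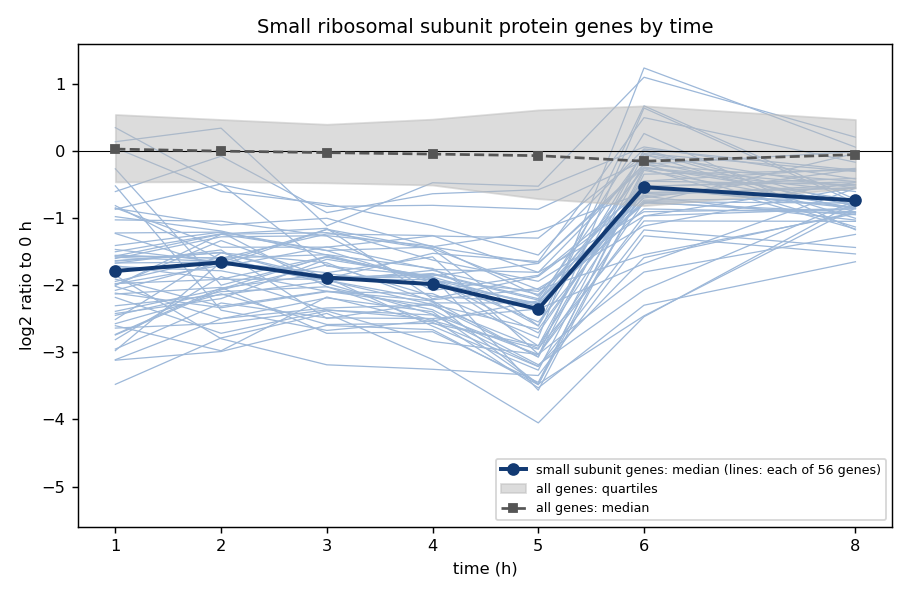
Log2 ratio to 0 h (vertical axis) against hours of meiosis (horizontal axis) for each of the 56 small subunit genes (thin lines), their median (thick line with circles), and the median and quartiles of all 5585 genes (squares and grey band). The median of the small subunit genes lay between -1.66 and -2.35 from 1 to 5 h and at -0.53 and -0.73 at 6 and 8 h.

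Most of the distance back to the 0 h share lay between 5 and 6 h. All 56 genes were higher at 6 h than at 5 h, as were 48.7% of all genes, and 48 of them were at least 2-fold higher, against 11.2% of all genes; none was at least 2-fold lower (10% of all genes). The median difference, 6 h minus 5 h, was 1.64, a 3.11-fold higher share at 6 h. Because the 6 h column stands apart, the 8 h column was also set against 5 h without it. All 56 genes were higher at 8 h than at 5 h (46.5% of all genes) and 49 were at least 2-fold higher (13% of all genes), with a median difference of 1.80. From 6 to 8 h the genes did not move together: 4 were at least 2-fold higher at 8 h (14.6% of all genes), 4 at least 2-fold lower (14.7% of all genes), and the median difference was -0.15. Of the 100 genes with the largest 6 h minus 5 h difference in the table, 23 were small subunit genes, 41.1% of the 56, and 33 were large subunit genes, 44.6% of the 74.

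Between 1 and 5 h the steps between neighbouring times were small beside the 1 h median of -1.79 relative to 0 h. At 2 h, 1 gene was at least 2-fold higher than at 1 h (2.86% of all genes) and 2 were at least 2-fold lower (2.88%). At 3 h, 3 were at least 2-fold lower than at 2 h (6.59% of all genes), and at 4 h, 1 was lower than at 3 h by that much (1.31%). None was at least 2-fold higher at 3 h than at 2 h (4.85% of all genes), at 4 h than at 3 h (5.98%) or at 5 h than at 4 h (6.95%). At 5 h, 48 of 56 were lower than at 4 h, as were 52% of all genes, and 7 were at least 2-fold lower (4.91% of all genes); after quantile normalization 1 was. Over 1 to 5 h a gene's own highest and lowest values lay a median of 1.06 apart, with 0.37 for RPS0B and 2.64 for RPS7A as the extremes. In the values as deposited 40 of 56 had their lowest value at 5 h, as did 15.5% of all genes; after quantile normalization, which gives every column the same spread, 9 did. The lowest time within 1 to 5 h therefore depends on the scaling, whereas all 56 lay higher at 6 h than at 5 h under the deposited, the centred and the quantile-normalized values.

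A straight line over the hours was tested. It was fitted to all 5585 genes with limma and adjusted by Benjamini-Hochberg, and a gene was called at an adjusted p under 0.05. None of the 56 small subunit genes passed, where 40 genes fell (0.716%) and 75 rose (1.34%) among all genes. At an unadjusted limma p under 0.05 there were 14 of 56 small subunit genes, near the 23% of all genes. All 14 had a positive slope, where 613 of the 1282 genes at that p in the whole table did. Of the 56 slopes 54 were positive, against 44.3% of all slopes, with a median of 0.16 log2 per hour. The closest to the threshold were RPS11B with a slope of 0.29 ± 0.076 log2 per hour (SE, limma adjusted p = 0.069) and RPS23A with 0.36 ± 0.096 (SE, limma adjusted p = 0.0728). The 2 negative slopes were those of RPS24A and RPS27B. A line fits a low plateau followed by a step poorly. A fit with the square of hours added also called 0 of the 56, where 5.68% of all genes were called. After quantile normalization 13 of the 56 rose in the limma slope test, where 7.7% of all genes were called in either direction.

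The 8 single-copy genes have no A or B paralogue, and whether their rows hold signal of other genes was not tested. Their median was -2.18 at 1 h, -3.21 at 5 h and -0.79 at 6 h over 8 genes, against -1.67, -2.30 and -0.53 over the 48 duplicated genes. All 8 lay below 0 h at every time. RPS12 (YOR369C), a protein of the beak of the head, had the lowest mean of all small subunit genes, with -3.48, -2.78, -2.42, -3.11, -4.05, -2.47 and -0.76. It was the lowest of the 56 at 1, 5 and 6 h, and it was 1.58 higher at 6 h than at 5 h and another 1.71 higher at 8 h than at 6 h. RPS3 (YNL178W), which lines the mRNA entry channel, had -2.64, -2.57, -2.36, -2.501, -3.53, -2.30 and -1.65 and was the lowest of the 56 at 8 h. RPS2 (YGL123W), its neighbour at the entry channel, had -1.85, -2.80, -3.18, -3.25, -3.34, -1.26 and -1.53. These 3 had the lowest means over the 7 times, between -2.46 and -2.72.

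Among the other single-copy genes the step at 6 h varied. RPS15 (YOL040C), whose tail reaches the decoding site and which is needed to export the precursor of the subunit from the nucleus, had -2.42, -2.20, -1.61, -1.87, -3.56, -0.53 and -0.40. RPS31 (YLR167W), made as a fusion with ubiquitin, had -1.91, -2.31, -2.09, -2.23, -3.07, -0.043 and -0.999. RPS20 (YHL015W), a head protein that is ubiquitinated when ribosomes collide, had -2.39, -2.05, -1.57, -1.91, -2.71, -0.45 and -0.50. In these 3 the 6 h value was at least 2.26 above the 5 h value. RPS13 (YDR064W), a body protein, had -0.85, -1.10, -0.999, -1.42, -1.19, -0.62 and -0.55. In RPS13 the 6 h value was 0.57 above the 5 h value, and it was the least far below 0 h of the 8 at 5 h.

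By place in the subunit, the 22 genes of head proteins had medians of -1.92, -2.66, -0.69 and -0.75 at 1, 5, 6 and 8 h. The 34 genes of body and platform proteins had -1.67, -2.32, -0.48 and -0.73 at the same times. Their quartiles overlapped at every time. The 24 genes of proteins found in all domains of life had medians of -2.33 and -0.62 at 5 and 6 h, against -2.45 and -0.48 for the 32 genes of proteins not found in bacteria. These differences were smaller than the distance between the quartiles within each group, and no test was made of them.

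**Figure D2:**
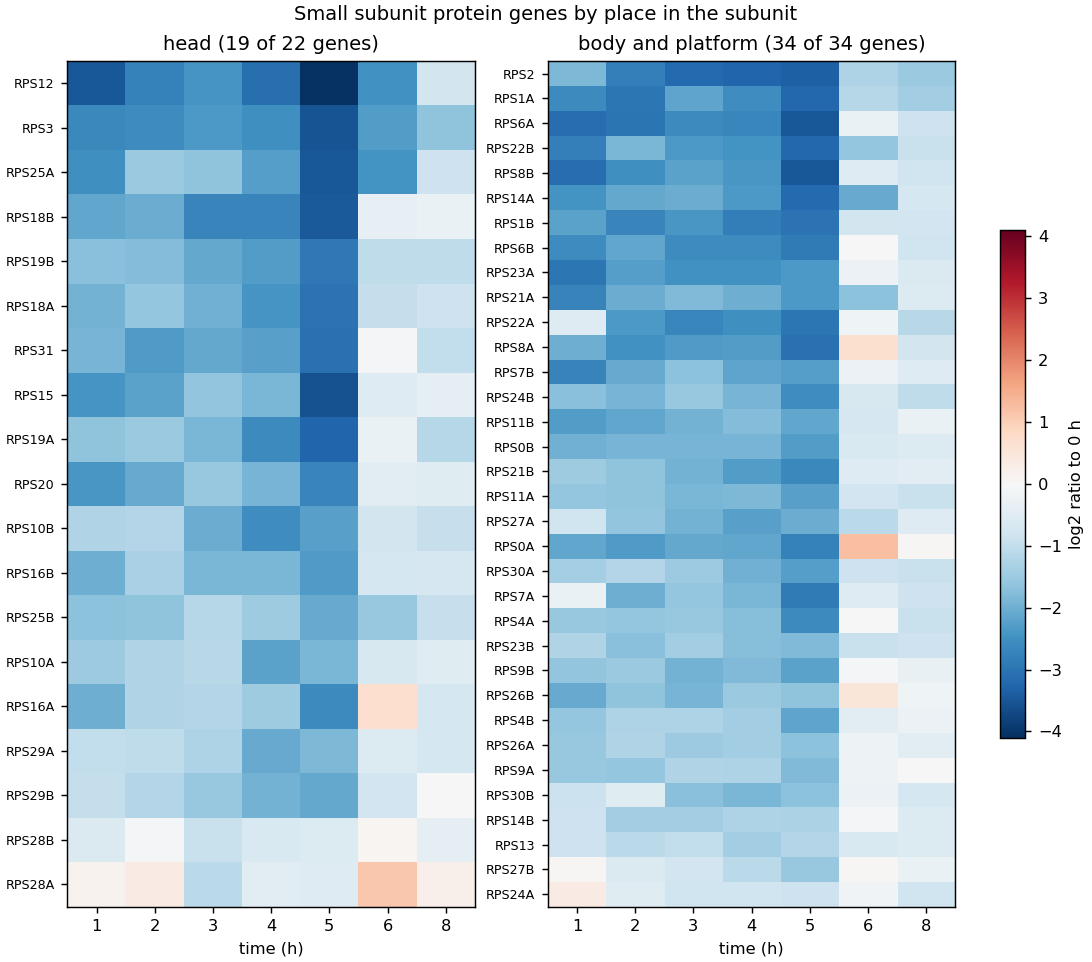
Log2 ratio to 0 h (colour, blue below and red above 0 h) of each small subunit gene (rows, ordered by mean) at each time in hours (columns), for 19 of the 22 genes of head proteins and all 34 genes of body and platform proteins. Blue fills the columns of 1 to 5 h in most rows of both panels, RPS28A, RPS28B, RPS24A and RPS27B are the palest, and the columns of 6 and 8 h are pale.

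The genes outside this pattern were few. Of the 56, 11 were not at least 2-fold below 0 h at every time from 1 to 5 h: RPS7A, RPS13, RPS14B, RPS22A, RPS24A, RPS27A, RPS27B, RPS28A, RPS28B, RPS29B and RPS30B. RPS28A (YOR167C) and RPS28B (YLR264W) both stood apart; they encode eS28, a small head protein at the mRNA exit, and in yeast the protein binds the RPS28B mRNA and with Edc3 directs its decay. RPS28A had 0.14, 0.34, -1.11, -0.47, -0.52, 1.10 and 0.21, and RPS28B had -0.60, -0.074, -0.91, -0.63, -0.57, 0.064 and -0.41. RPS28A was the highest of the 56 genes at 2, 4, 5 and 8 h, and its mean over the 7 times was -0.043, against -0.45 for RPS28B. By the mean size of the difference over the 7 times, RPS28A was the 1 gene of 48 duplicated ones whose closest small subunit gene was its own paralogue.

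RPS24A (YER074W), for a body protein whose human counterpart is mutated in Diamond-Blackfan anaemia, had 0.35, -0.50, -0.82, -0.81, -0.86, -0.14 and -0.82 and the highest mean after RPS28A and RPS28B. Its paralogue RPS24B (YIL069C) had -1.71, -1.91, -1.57, -1.90, -2.55, -0.67 and -1.03, which is the common pattern. RPS24A and RPS27B also had their highest value at 1 h, as did RPS7A, whereas the highest value lay at 6 h in 30 of 56 genes and at 8 h in 23; 36% of all genes were highest at 6 or 8 h. The rows next to RPS24A in gene order, ALD5 and PTP3, differed from it by a mean size of 0.53 and 0.64 over the 7 times, and MYO1 differed from RPS27B by 0.41. Over 102 comparisons of a small subunit gene with a neighbouring measured gene that is not ribosomal, the median of this size was 1.74. Whether the rows of RPS24A and RPS27B hold signal of a neighbouring gene was not tested.

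The paralogue pairs were compared next, as the A value minus the B value at each time. This difference does not change when a column is shifted, and its sign is the same after quantile normalization. The higher copy is the one with the higher ratio to 0 h, which need not have more mRNA. An error in a copy's 0 h value would shift A minus B alike at every time that shares it. The labels do not say whether the array's probes separate near-identical copies, and signal shared between copies would make a pair look alike. Over the 24 pairs the mean size of the difference over the 7 times had a median of 0.45 (quartiles 0.35 and 0.68). Over the 1516 other pairings of 2 small subunit genes the median was 0.65 (quartiles 0.47 and 0.90). Across the 7 times the Pearson correlation between copies had a median of 0.87, against 0.79 for the other pairings. It is a description, since the points belong to a common course.

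The copies of a pair differed most at 1 and 6 h. At 1 h, 8 of 24 pairs differed at least 2-fold, and at 6 h, 9 did, against 2, 2, 3 and 3 pairs at 2, 3, 4 and 5 h and 0 at 8 h. The median size of the difference was 0.63 at 1 h and 0.68 at 6 h, against 0.26 at 8 h. The spread over all 56 genes was also widest at 1 h (SD 0.85) and narrowest at 8 h (SD 0.38), with 0.78 at 5 and 6 h. Other pairings of small subunit genes were not compared time by time, so whether these differences are particular to paralogues is not known. Neither copy was the higher one as a rule: A was the higher in 12 of 24 pairs at 1 h and in 12 at 6 h. At some time 13 of the 24 pairs differed at least 2-fold.

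**Figure D3:**
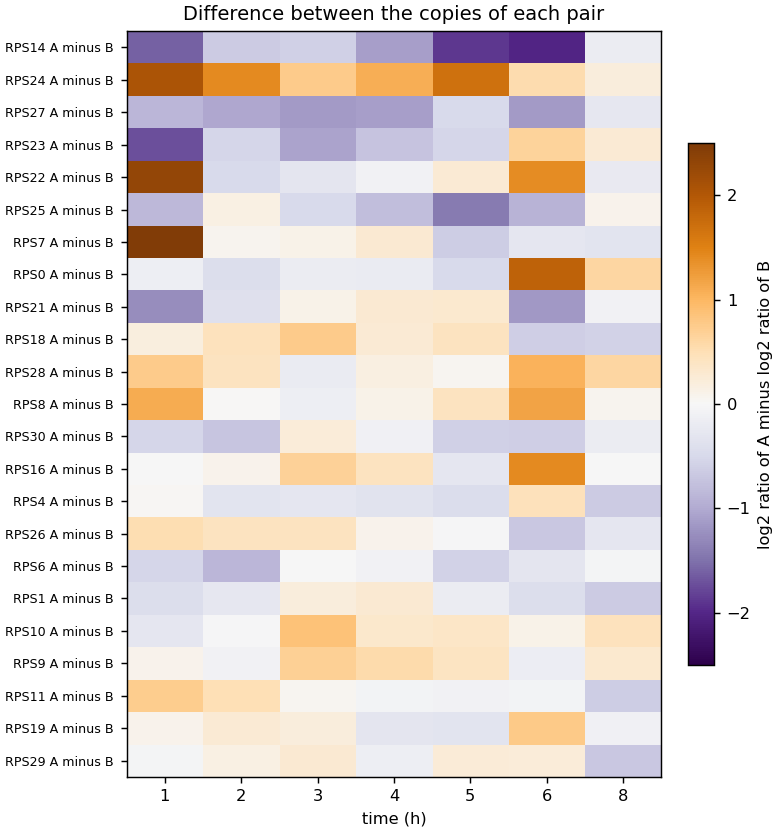
Log2 ratio of copy A minus that of copy B (colour, orange where A is higher and purple where B is higher) for 23 of the 24 pairs (rows, the pair with the largest mean size of the difference at the top) at each time in hours (columns). The strongest colours lie at 1 and 6 h, and the column of 8 h is the palest, with no pair 2-fold apart.

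RPS14 was the pair farthest apart. It encodes uS11 of the platform, and in yeast the protein represses splicing of the RPS14B transcript. RPS14A (YCR031C) had -2.45, -2.09, -2.02, -2.36, -3.18, -2.07 and -0.74, against -0.84, -1.43, -1.43, -1.26, -1.30, -0.052 and -0.55 in RPS14B (YJL191W). RPS14B was the higher copy at all 7 times, by a mean of 1.15, and A minus B was -0.18 at 8 h. RPS24 was the next pair, with the A copy higher at all 7 times by a mean of 1.10; these 2 were the only pairs of 24 with a mean size of at least 1, and without the 1 h array 1 pair had.

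RPS27 encodes a zinc-binding protein of the platform. RPS27A (YKL156W) had -0.81, -1.62, -1.92, -2.21, -2.05, -1.11 and -0.54, against 0.051, -0.60, -0.79, -1.11, -1.55, 0.035 and -0.28 in RPS27B (YHR021C). RPS27B was the higher copy at all 7 times, by a mean of 0.86, while both copies followed a like course with a Pearson correlation of 0.84 over the 7 times. RPS6 was the other pair in which the B copy was higher at all 7 times. It encodes eS6, the protein phosphorylated downstream of TORC1. RPS6A (YPL090C) had -3.12, -2.99, -2.60, -2.66, -3.48, -0.28 and -0.85, against -2.57, -2.13, -2.58, -2.57, -2.90, 0.022 and -0.80 in RPS6B (YBR181C), a mean difference of -0.35. Both copies were among the 23 genes with the largest 6 h minus 5 h difference of the whole table.

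In RPS23 the sign changed with time. RPS23 encodes uS12 of the decoding centre. RPS23A (YGR118W) had -2.95, -2.26, -2.48, -2.49, -2.35, -0.25 and -0.60, against -1.23, -1.72, -1.43, -1.76, -1.81, -0.90 and -0.86 in RPS23B (YPR132W). RPS23A was the lower copy from 1 to 5 h and the higher one at 6 and 8 h.

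**Figure D4:**
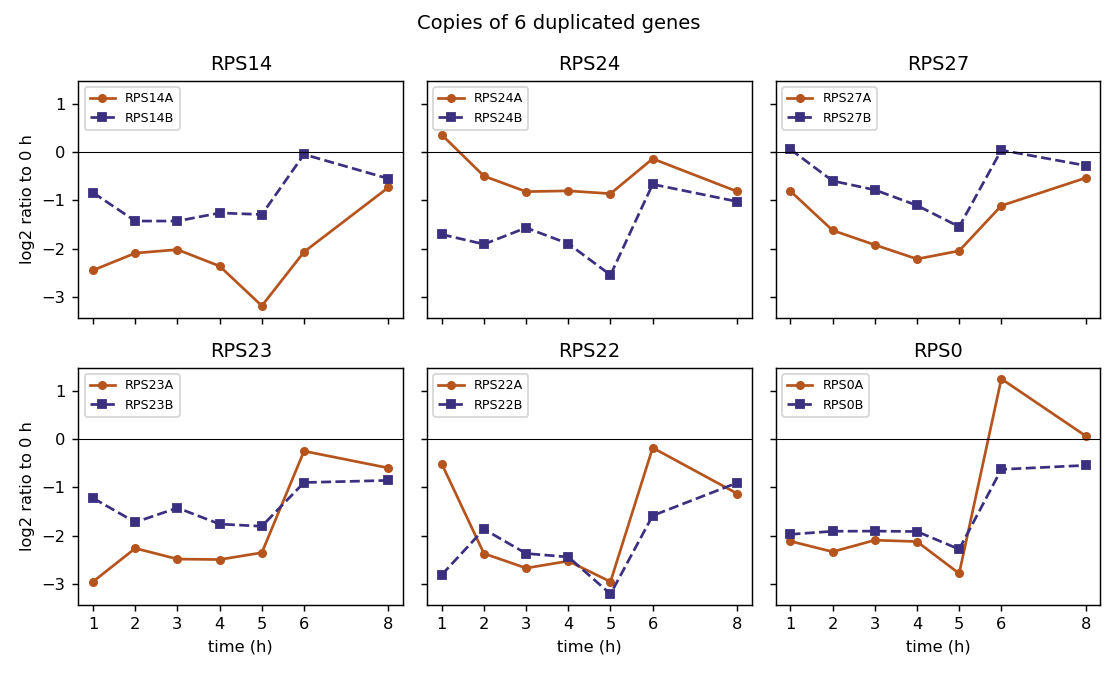
Log2 ratio to 0 h (vertical axis) against hours of meiosis (horizontal axis) for copy A (circles, solid line) and copy B (squares, dashed line) of RPS14, RPS24, RPS27, RPS23 and RPS22, which are among the pairs farthest apart on average, and of RPS0. A minus B of RPS14 was -2.02 at 6 h and -0.18 at 8 h, and RPS0A reached 1.24 at 6 h, where RPS0B was at -0.63.

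Differences at a single time were larger still in some pairs. These were named after their values were seen. At 1 h RPS7A (YOR096W) was at -0.26, against -2.74 in RPS7B (YNL096C), the largest difference of any pair at any time. RPS7A had -0.26, -1.997, -1.58, -1.88, -2.90, -0.53 and -0.85, and RPS7B had -2.74, -2.07, -1.69, -2.16, -2.26, -0.25 and -0.52, so that A minus B lay between -0.64 and 0.28 from 2 to 8 h. The protein, eS7 of the body, is a ubiquitination target on translating ribosomes. RPS22, for uS8 of the body, had the same form at 1 h. RPS22A (YJL190C) had -0.52, -2.37, -2.67, -2.53, -2.95, -0.18 and -1.13, against -2.81, -1.87, -2.37, -2.44, -3.21, -1.59 and -0.91 in RPS22B (YLR367W). The 2 h minus 1 h difference of RPS22A, -1.85, was the lowest of the 56 genes.

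At 6 h the gene standing out was RPS0A (YGR214W), for uS2, a body protein needed to mature the 18S RNA. RPS0A had -2.12, -2.33, -2.09, -2.12, -2.78, 1.24 and 0.062, and its 6 h minus 5 h difference of 4.03 was the largest of all 5585 genes. Its paralogue RPS0B (YLR048W) had -1.97, -1.91, -1.91, -1.91, -2.28, -0.63 and -0.55, a difference of 1.65. RPS8A (YBL072C), for eS8 of the body, was in place 2 of all genes with 3.71, and had -2.01, -2.496, -2.34, -2.29, -3.06, 0.65 and -0.76. RPS16A (YMR143W), for uS9, whose tail reaches the tRNA in the P site, was in place 7 with 3.28, and had -2.002, -1.24, -1.21, -1.46, -2.60, 0.68 and -0.72. In these 3 genes the 8 h minus 6 h difference lay between -1.41 and -1.18, so the height of the 6 h peak rests on that array alone; their 8 h values were still 2.84, 2.30 and 1.88 above their 5 h values.

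The 4 genes at least 2-fold higher at 8 h than at 6 h were RPS12, RPS14A, RPS21A (YKR057W) and RPS25A (YGR027C), a smaller share than the 14.6% of all genes, and after quantile normalization 2 genes were. Their 6 h minus 5 h differences were 1.58, 1.11, 0.68 and 1.02, against a median of 1.64 over the 56 genes. The 4 were picked by a difference that a low 6 h value enlarges. That same value makes the 6 h minus 5 h difference smaller, so this contrast is partly set by the choice. RPS25A, for eS25 near the exit site, which is needed for initiation on some viral RNAs, had -2.51, -1.51, -1.66, -2.24, -3.47, -2.45 and -0.85. Its paralogue RPS25B (YLR333C) had -1.67, -1.65, -1.16, -1.45, -2.06, -1.54 and -0.93 and the smallest 6 h minus 5 h difference of the 56 genes, 0.52. RPS21A had -2.73, -2.04, -1.83, -2.002, -2.36, -1.67 and -0.55, while its paralogue RPS21B (YJL136C) had -1.46, -1.65, -1.93, -2.29, -2.65, -0.52 and -0.46. Apart from RPS21B, the genes of this paragraph were among the 12 that were still at least 2-fold below 0 h at 6 h. The 12 also held RPS1A, RPS2, RPS3, RPS19B, RPS22B and RPS27A.

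The most alike pairs followed a single course. RPS29A (YLR388W) and RPS29B (YDL061C), for a zinc-binding head protein, differed by a mean size of 0.25, with -1.02, -1.04, -1.26, -2.08, -1.85, -0.56 and -0.73 in RPS29A and -0.97, -1.19, -1.55, -1.93, -2.09, -0.78 and -0.031 in RPS29B. RPS19A (YOL121C) and RPS19B (YNL302C), whose human counterpart is the gene most often mutated in Diamond-Blackfan anaemia, differed by a mean size of 0.30. RPS19A had -1.64, -1.51, -1.88, -2.61, -3.26, -0.26 and -1.16, and RPS19B had -1.72, -1.78, -2.09, -2.30, -2.94, -1.04 and -1.05. RPS11A (YDR025W) and RPS11B (YBR048W) also differed by a mean size of 0.30, although RPS11B was the gene closest to the slope threshold. RPS11A had -1.58, -1.65, -1.88, -1.83, -2.22, -0.77 and -0.90, and RPS11B had -2.30, -2.14, -1.94, -1.78, -2.13, -0.70 and -0.27.

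RPS9 and RPS26 complete the genes with a known special role. RPS9A (YPL081W) and RPS9B (YBR189W) encode uS4, a protein that affects the accuracy of decoding. RPS9A had -1.55, -1.60, -1.23, -1.26, -1.81, -0.19 and -0.0045, and RPS9B had -1.63, -1.51, -1.93, -1.82, -2.20, -0.035 and -0.30, with a Pearson correlation of 0.93 over the 7 times. RPS26A (YGL189C) and RPS26B (YER131W) encode eS26, which contacts the mRNA upstream of the start codon. RPS26A had -1.56, -1.24, -1.48, -1.43, -1.67, -0.20 and -0.45, and RPS26B had -2.07, -1.66, -1.90, -1.52, -1.64, 0.50 and -0.16; RPS26B was one of the 10 genes above 0 at 6 h. Both copies of RPS1, RPS4, RPS10, RPS18 and RPS30, with RPS8B and RPS16B, lay between -3.48 and 0.0076 over all times.

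Small subunit genes lay close to the large subunit genes throughout. The small subunit median was the lower one at all 7 times, with a small minus large difference between -0.32 at 1 h and -0.13 at 3 h on the log2 scale, smaller in size than the distance between the quartiles of either list. At 5 h, 53 of 56 small subunit genes were at least 2-fold below 0 h, against 65 of 74 large subunit genes and 17.4% of all genes. At 6 h, 10 of 56 lay above 0, against 26 of 74 and 44.9% of all genes. Every value was below 0 in 45 of 56 small subunit genes, against 45 of 74 large subunit genes and 14.4% of all genes. In the limma slope test 0 of 56 small subunit genes passed, where 1.34% of all genes rose and 0.716% fell, against 1 of 74 large subunit genes. RPL27A and RPL4B had the lowest means of that list, -2.48 and -2.34, and RPL43B and RPL16B the highest, 2.16 and -0.39. The genes for the small subunit of the mitochondrial ribosome differed in size: their median was -0.34 at 5 h and 0.16 at 6 h over 24 genes. At least 2-fold below 0 h were 4 of 24 at 5 h and 4 at 6 h, near the shares of all genes, 17.4% and 19.5%. At 6 h, 4 were at least 2-fold above 0 h, as were 18.9% of all genes. No mitochondrial small subunit gene passed the slope test. RSM28 and RSM27 had the lowest means of that list, -1.21 and -0.90, and MRPS17 and MRP51 the highest, 0.60 and 0.069.

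**Figure D5:**
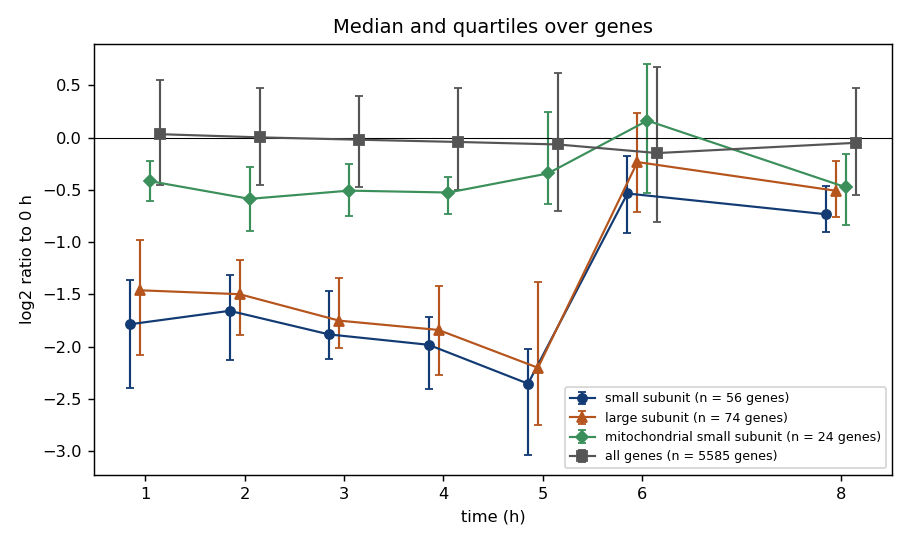
Median log2 ratio to 0 h (points) with quartiles over genes (bars) at each time in hours, for the small subunit genes (circles), the large subunit genes (triangles), the mitochondrial small subunit genes (diamonds) and all genes (squares); points of 1 time are set side by side. The 2 cytosolic lists lay between -1.46 and -2.35 from 1 to 5 h and between -0.23 and -0.73 at 6 and 8 h, while the mitochondrial list stayed between -0.59 and 0.16.

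Other genes that act on the small subunit were taken from lists, and the median of each list lay nearer to 0 than that of the small subunit genes at all 7 times. The 16 initiation factors and partners that bind the subunit had a median of -0.16 at 5 h. ASC1 (YMR116C), the yeast RACK1, is itself a protein of the head without an RPS name, and had -0.32, -2.23, -1.93, -2.03, -2.79, -0.96 and -2.02; it lay within the range of the small subunit genes at 1 to 6 h and below all of them at 8 h. STM1 (YLR150W), which clamps idle ribosomes in starved cells, had -1.84, -1.16, -1.95, -1.95, -2.12, -0.50 and 0.25. ASC1 and STM1 had the lowest means of this list, and HCR1 and TIF5 the highest, 0.59 and 0.31. PRT1 (YOR361C), a subunit of the initiation factor eIF3, rose in the limma slope test by 0.39 ± 0.069 log2 per hour (SE, limma adjusted p = 0.0496), with -1.64, -1.32, -0.87, -0.86, -0.33, 0.84 and 0.85. PRT1 was the 1 gene of 16 that passed, where 1.34% of all genes rose and 0.716% fell. Leaving out 1 time, it passed in 1 of 7 fits, the one without 8 h, with limma adjusted p between 0.0142 and 0.188.

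Of 20 genes for assembly of the small subunit, 1 rose in the slope test and none fell, where 1.34% of all genes rose and 0.716% fell. The gene that rose was PNO1 (YOR145C), a platform assembly factor, with -0.17, 0.43, 0.35, 0.37, 0.60, 1.56 and 2.32 and a slope of 0.33 ± 0.070 log2 per hour (SE, limma adjusted p = 0.0496). With any 1 of the 7 times left out it did not pass, with limma adjusted p between 0.0707 and 0.188, nor did it in the robust fit (limma adjusted p = 0.057). The median of this list was -0.45 at 5 h and 0.44 at 8 h. HRR25, a protein kinase that also acts in meiosis, and ENP1 had the highest means, 1.94 and 0.89, and TSR3, which modifies the 18S RNA, and SLX9 the lowest, -1.13 and -0.84. Among 15 regulators of ribosomal protein genes the median stayed between -0.82 at 1 h and 0.19 at 3 h, and no gene passed the slope test in either direction. HMO1 (YDR174W), a protein bound to many ribosomal protein promoters, was the lowest with -1.36, -1.17, -1.61, -2.09, -1.72, -1.45 and -1.13. REB1 had the next lowest mean, -0.60, and TBF1 and STB3 had the highest, 1.15 and 0.83. RAP1 (YNL216W) had -1.67, -0.77, 0.55, 0.23, -0.36, -0.39 and -0.47, FHL1 (YPR104C) -0.82, 0.15, 0.52, 0.097, 0.65, 0.42 and 0.32, and IFH1 (YLR223C), the coactivator, -0.18, 0.13, -0.088, -0.23, -0.88, -0.32 and -0.039. SFP1 (YLR403W) had -1.03, -0.69, -0.011, -0.12, -1.01, -1.28 and -0.029. Whether the transcripts of these regulators bear on those of the small subunit genes was not tested.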

How the data were processed

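Transcripts of the Spo11Y135F mutant were measured on 2-colour arrays at 7 times of meiosis, 1 array each. The authors deposited log2 ratios of sample over pool, set relative to 0 h, per the series' design text. That text names 2 independent cultures, yet a single column per time was deposited, so each time counts as 1 sample. All arrays have one dye orientation, per the labels. Neither labels nor design text state the platform, background correction, normalization or spot filters, and no intensities were analysed, so signal over background is unknown. The number of arrays limits the precision.

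Gene names came from the R64 RefSeq gene table by locus tag (5655 of 6141 rows matched). Only the 5585 rows complete over the 7 times were used. Counts at least 2-fold from 0 h or between times, medians and paralogue differences are descriptions. For the slope over hours, limma 3.58.1 (R 4.3.3) took all complete rows, with 5 residual degrees of freedom and Benjamini-Hochberg adjustment, and tested on simulated data; scatter around the line is its only error, and times of one course are not independent. Genes given by value were the single-copy members, those with a special role, the 5 pairs farthest apart and the 3 closest, the 3 members with the lowest and the 3 with the highest mean, the 3 with the largest and the 3 with the smallest 6 h minus 5 h difference, and, from other lists, genes past the slope test and the 2 highest and 2 lowest means. Some genes that this rule names are not reported here; they stay in all counts and medians. RPS7, RPS21, RPS22 and the regulators RAP1, FHL1, IFH1 and SFP1 were added after their values were seen. Members, lists and tests were chosen with earlier results of these data known. Alternatives were column centring, quantile normalization, other fold thresholds, other forms of the line and leaving out each time. Descriptions were computed in Python 3.11.15 (pandas 2.3.3, numpy 2.4.6) and plots drawn with matplotlib 3.10.9.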

Additional observations from a re-analysis of the deposited data

How the results depend on the processing

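The small subunit medians and the small minus large differences kept their sign at all 7 times under column centring, for which the 6 h median of all genes was -0.15, and under quantile normalization, which gave small subunit medians of -1.91 at 5 h and -0.35 at 6 h. The counts at least 2-fold below 0 h from 1 to 5 h stayed within 1.5 times, and the median size of the paralogue difference was 0.42 after quantile normalization. After quantile normalization 13 small subunit genes rose in the limma slope test, where 7.7% of all genes were called in either direction. Of the large subunit genes 10 rose and 1 fell. Quantile normalization also gave 1 small subunit gene at least 2-fold lower at 5 h than at 4 h, 2 higher and 7 lower at 8 h than at 6 h, and 9 with their lowest value at 5 h. Column centring gave 7 lower at 8 h than at 6 h. At a threshold of 1.5-fold, 26 genes were below 0 h at 6 h and 33 at 8 h, 24 were lower at 5 h than at 4 h, and 8 were higher and 12 lower at 8 h than at 6 h. At 3-fold, 7 were below 0 h at 6 h and 1 at 8 h. The share of all genes was not computed for the counts at these other thresholds and scalings. These counts show only how the numbers of small subunit genes move. Leaving out each time in turn, the slope test called 0 small subunit genes each time; it also called 0 of all 5585 genes without 1, 2 or 6 h, 19, 4 and 8 without 3, 4 and 5 h and 868 without 8 h, so these fits say little on the small subunit genes. The median paralogue difference lay between 0.38 and 0.49, and 1 to 2 pairs had a mean size of at least 1. Without the 1 h array 1 pair had; the cause was not tested. The robust fit, the line in the rank of the time and the fit with the square of hours called 0 of the 56. Of all genes these fits called 1.2%, 6.57% and 5.68%. For PRT1 and PNO1 the alternatives were chosen after seeing the data. The other 10 counts that moved by over 1.5 times were of 10 genes or fewer between 1 and 4 h. No paired analysis was possible because each time has 1 sample. Signal over background is unknown.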

Other observations

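Some small subunit genes lie beside another ribosomal protein gene in the R64 gene order. Over 9 comparisons of a small subunit gene with a neighbouring measured ribosomal protein gene, the mean size of the difference over the 7 times had a median of 0.53, between 0.41 and 1.22. RPS16A lay 0.41 from RPL13B and RPS16B lay 0.53 from RPL13A, which are the corresponding copies of a duplicated block. RPS9B lay 0.45 from RPL21A, RPS15 lay 0.48 from RPP2A, a gene of the ribosomal stalk, and RPS19B lay 0.49 from RPL18B. These values are of the order of those between other pairings of small subunit genes, and no test was made of them.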
